A study of Mus musculus with 21 samples.

Results

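The TREM receptors (triggering receptors expressed on myeloid cells) and the adaptor proteins that signal for them were followed in mouse forebrain through 7 genes. The receptor genes were Trem2, Trem1, Treml1, Treml2 and Treml4, and the adaptor genes were Tyrobp (also called Dap12) and Hcst (also called Dap10). They were taken by symbol from the 55401 genes of the deposited count table, without regard to their values, and all 7 were found there.

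TREM receptors sit on the surface of myeloid cells, and in the brain mostly on microglia, the resident macrophages. Their own tails are short, so most of them signal through an adaptor held in the same membrane. TYROBP carries an ITAM, a pair of tyrosines that recruits the kinase SYK once they are phosphorylated, whereas HCST carries a YxNM motif, which recruits PI3-kinase. TREM2 binds lipids and lipoproteins, APOE among them, and variants of TREM2 are known as risk factors for Alzheimer's disease.

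Bulk RNA-seq of forebrain was available for 21 mice in 6 groups. The parental groups E2H, E3H and E4H (n = 3 each) were homozygous for a targeted replacement of mouse Apoe with human APOE2, APOE3 or APOE4, on C57BL6, and were 9 to 10 months old. The other 3, written PS/E2H, PS/E3H and PS/E4H (n = 4 each), had the same alleles and were heterozygous for PS19, a transgene of P301S human tau. These mice were killed once hindlimb paralysis had set in. All 21 mice thus carried the replaced Apoe locus, and there was no PS19 group with the mouse gene in these data. The PS19 transgene is driven by the mouse prion protein promoter and came from a line on a mixed B6/C3H background, so strain background, tau transgene, paralysis and age at death cannot be told apart between a PS19 group and its parental group. By the study's methods the mice were male except for 1 E4H, 1 PS/E2H and 2 PS/E4H mice, so PS/E3H against E3H was the only tau comparison made in males alone. The PS19 groups therefore also differed from each other in sex, and E4H from the other parental groups. In the study's cohorts paralysis came later in PS/E3H mice than in PS/E2H or PS/E4H mice. APOE allele, sex and age at death thus cannot be told apart between the PS19 groups.

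Total counts were about 59265500 to 75932200 per mouse (median 63751700). Levels are given in CPM, counts scaled to library size with TMM factors, and as mean ± SD over mice. Nothing in the labels says whether mice shared a litter. The forebrain label was checked against markers: the summed level of 7 forebrain neuron markers was 3434 to 4539 CPM in every mouse, and that of 5 hindbrain markers was at most 9.40 CPM. The mouse Apoe gene, part of which is replaced, still had 617 to 1164 counts per mouse in the 6 groups. Microglial markers were present in every mouse, and 2 mice of the APOE2 line lay away from the rest of their groups. PS/E2H mouse 4 had a geometric mean of 22.9 CPM over 13 microglial markers, against 38.7 to 45.0 CPM in the other 3 PS/E2H mice, a gap within the limit of Dixon's outlier test for a group of 4. E2H mouse 2 differed from E2H mice 1 and 3 by a chi-square per gene of 70.8 and 62.8, against 18.4 between those 2, and had the highest marker level of the parental mice (33.4 CPM). Differences in the APOE2 line are given below with and without these mice where they moved most.

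The 5 receptor genes lie together on chromosome 17 within 134.4 kb (GRCm38): Trem1 at chr17:48232768-48246924, Treml4 at chr17:48264295-48275360, Treml2 at chr17:48299498-48312533, Trem2 at chr17:48346401-48354147 and Treml1 at chr17:48359916-48367176, all on the plus strand. The adaptor genes are neighbours on chromosome 7, about 10.7 Mb from the Apoe locus that differs between the lines. Tyrobp at chr7:30413760-30417585 is on the plus strand and Hcst at chr7:30417712-30419854 on the minus strand, so their 3′ ends face each other with 126 bases between them. The coding sequences of the signalling motifs are shown because they are what tells the adaptors apart. They were read from the GENCODE M21 principal transcripts, 5′ to 3′ on the coding strand, with the tyrosine codons in capitals.
Tyrobp ITAM: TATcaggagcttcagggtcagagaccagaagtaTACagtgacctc
Hcst YxNM: TACatcaacatg
The Tyrobp stretch encodes residues 92 to 106 of 114 and is split between exon 4 of 5 (chr7:30415670-30415675) and exon 5 (chr7:30417344-30417382). The Hcst stretch encodes residues 72 to 75 of 79 and lies in the last of 4 exons (chr7:30417821-30417832). Neither motif was found in the coding sequences of the 5 receptors.

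Promoter sequence, the 250 bases before the RefSeq start on GRCm38.p6, was given for Trem2, Hcst, Trem1, Treml1 and Treml4. The 2 windows below are shown because Trem2 passed the test for tau mice described next and Hcst did not. Hcst had only 8 to 43 counts per mouse, and whether the 2 genes differed in their rise was not tested. AGGAAGT, a core sequence recognised by the myeloid transcription factor PU.1 (Spi1), is in capitals, and each window is written 5′ to 3′ on its gene's strand.
Trem2 (chr17:48346151-48346400, plus strand): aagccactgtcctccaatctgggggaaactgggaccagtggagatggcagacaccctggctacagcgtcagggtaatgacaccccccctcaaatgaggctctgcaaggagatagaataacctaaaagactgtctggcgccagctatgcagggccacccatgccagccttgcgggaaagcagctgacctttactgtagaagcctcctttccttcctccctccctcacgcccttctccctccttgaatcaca
Hcst (chr7:30419855-30420104, minus strand): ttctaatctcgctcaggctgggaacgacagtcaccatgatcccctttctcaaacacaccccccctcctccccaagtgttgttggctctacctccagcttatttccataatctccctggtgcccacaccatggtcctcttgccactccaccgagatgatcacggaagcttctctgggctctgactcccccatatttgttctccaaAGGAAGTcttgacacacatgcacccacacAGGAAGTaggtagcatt
Searched on both strands, AGGAAGT was found 2 times in the Hcst window, 46 and 17 bases before the start, and 0 times in the Trem2 window. The Trem1 window held 1 copy. Among 32851 promoter windows of this length, 7.69% held at least 1 copy. A match of letters is a description of the window and not a measured binding site.

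Trem2 RNA was higher in every paralyzed PS19 mouse than in any mouse of its parental line. As background, 0.451%, 1.2% and 2.4% of all genes tested were called higher in the APOE2, APOE3 and APOE4 lines by the test described in the next paragraph. Trem2 was at 11.2, 19.8 and 13.8 CPM in the E2H mice and at 34.2, 37.5, 36.6 and 23.8 CPM in the PS/E2H mice. In the APOE3 line it was at 16.2, 11.4 and 14.5 CPM without the transgene and at 31.6, 42.7, 39.7 and 45.6 CPM with it. In the APOE4 line the values were 13.2, 12.1 and 11.4 CPM in E4H mice and 55.3, 44.3, 39.2 and 50.04 CPM in PS/E4H mice. The parental and PS19 groups did not overlap in any line, and the lowest PS19 value was that of PS/E2H mouse 4. The share of all genes whose groups lay apart in this way was not counted, here or for the members below.

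The differences were tested with edgeR's quasi-likelihood F test over all genes, and a call required both a fold of at least 2 and a p under 0.05 after Benjamini-Hochberg adjustment. Trem2 was called in all 3 lines: it rose 2.21-fold in PS/E2H over E2H (log2 fold change 1.14, SE 0.214, adjusted p = 0.0475), 2.81-fold in PS/E3H over E3H (1.49, SE 0.146, adjusted p = 0.00135) and 3.88-fold in PS/E4H over E4H (1.95, SE 0.121, adjusted p = 4.37e-05). Fitted over the 3 lines together, with APOE line as a covariate, the rise was 2.89-fold (1.53, SE 0.128, adjusted p = 2.44e-08). The APOE2 call was close to the threshold. It was lost on leaving out any 1 of E2H mice 1 and 3 and PS/E2H mice 1, 2 and 3, with log2 fold changes between 0.97 and 1.41 and adjusted p between 0.0263 and 0.234 over the 7 omissions. Without PS/E2H mouse 4 it was 1.27 (edgeR adjusted p = 0.0263), and without E2H mouse 2 it was 1.41 (adjusted p = 0.0274).

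Tyrobp, which carries the ITAM shown above and signals for Trem2 and Trem1, gave a similar picture. It was at 14.5, 19.8 and 14.4 CPM in E2H mice and at 34.0, 35.7, 41.5 and 20.8 CPM in PS/E2H mice. In E3H mice it was at 11.8, 11.7 and 12.5 CPM and in PS/E3H mice at 26.2, 47.5, 39.8 and 49.4 CPM. In E4H mice it was at 12.01, 10.7 and 11.9 CPM and in PS/E4H mice at 51.9, 46.8, 38.3 and 38.1 CPM. Again no PS19 mouse overlapped its parental group, but PS/E2H mouse 4 lay close to the highest E2H mouse.

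Tyrobp rose 3.35-fold in PS/E3H over E3H (log2 fold change 1.74, SE 0.188, edgeR adjusted p = 0.00213) and 3.81-fold in PS/E4H over E4H (1.93, SE 0.125, adjusted p = 4.37e-05). In the APOE2 line Tyrobp was not called, at a log2 fold change of 1.02 (SE 0.219, adjusted p = 0.0767). Without PS/E2H mouse 4 that value was 1.19 and the edgeR adjusted p 0.0132, past the threshold. DESeq2 (1.02, adjusted p = 8.40e-05) and an edgeR fit of all 21 mice (1.03, adjusted p = 0.0107) also called it. Over the 3 lines together Tyrobp rose 2.96-fold (1.57, SE 0.146, adjusted p = 1.03e-07).

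Treml2, a receptor found on B cells and macrophages, was far less abundant and also higher in PS19 mice. It was at 0.60, 0.71 and 0.81 CPM in E2H mice and at 2.97, 1.80, 1.72 and 1.92 CPM in PS/E2H mice. The E3H mice were at 0.61, 0.54 and 0.47 CPM and the PS/E3H mice at 1.07, 2.50, 1.45 and 3.65 CPM. The E4H mice were at 0.97, 0.35 and 0.54 CPM and the PS/E4H mice at 3.66, 1.49, 1.92 and 4.48 CPM. The groups did not overlap in any line, on raw counts of 26 to 65 per parental mouse and 76 to 286 per PS19 mouse, and the PS/E3H and PS/E4H mice spread widely among themselves.

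Treml2 was called in each line by edgeR, with log2 fold changes of 1.57 (SE 0.293, adjusted p = 0.0475) in the APOE2 line, 1.98 (SE 0.419, adjusted p = 0.0267) in the APOE3 line and 2.22 (SE 0.465, adjusted p = 0.0116) in the APOE4 line. Over the 3 lines together it rose 3.80-fold (1.93, SE 0.249, adjusted p = 6.81e-06). The calls within single lines were lost on leaving out single mice, although the log2 fold changes stayed well above 0. Over the omissions these were 1.36 to 1.68 in the APOE2 line, 1.61 to 2.21 in the APOE3 line and 1.94 to 2.70 in the APOE4 line. In the APOE2 line the call was lost on leaving out any 1 of the 7 mice (adjusted p 0.0641 to 0.178), in the APOE3 line on leaving out any E3H mouse or PS/E3H mouse 2 or 4 (up to 0.108), and in the APOE4 line on leaving out E4H mouse 2 (0.0590). The call over the 3 lines held on leaving out each of the 21 mice in turn.

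Hcst, the second adaptor, did not pass the test in any line. Its counts were 8 to 32 per parental mouse and 11 to 43 per PS19 mouse. It was at 0.28 ± 0.13 CPM in E2H, 0.15 ± 0.04 in E3H and 0.30 ± 0.15 in E4H, and at 0.39 ± 0.24, 0.35 ± 0.11 and 0.41 ± 0.09 CPM in PS/E2H, PS/E3H and PS/E4H. The PS/E3H mice all lay above the E3H mice, while the groups overlapped in the other lines.

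The log2 fold changes of Hcst were 0.44 (SE 0.614, edgeR adjusted p = 0.876) in the APOE2 line, 1.23 (SE 0.557, adjusted p = 0.234) in the APOE3 line and 0.43 (SE 0.487, adjusted p = 0.607) in the APOE4 line, and 0.69 (SE 0.300, adjusted p = 0.110) over the 3 lines. The standard error of Hcst was larger than that of Trem2 in every line. Hcst and Tyrobp face each other tail to tail, and how the deposited counts assigned reads near their 3′ ends is not stated.

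Members whose counts were too low for the filter were not tested and count as not called: 5, 6 and 4 of the 7 were tested in the APOE2, APOE3 and APOE4 lines and all 7 over the 3 lines. Counted over the family, 2 of 7 members were called higher in PS/E2H over E2H, where 0.451% of 20617 genes tested were called higher. In PS/E3H over E3H 3 of 7 were called higher, beside 1.2% of 21251 genes, and in PS/E4H over E4H 3 of 7, beside 2.4% of 20844 genes. Over the 3 lines together 3 of 7 were called higher, beside 2.24% of 22863 genes. The members called were Trem2 and Treml2 in all 4 fits and Tyrobp in all but the APOE2 line, and 0 of 7 were called lower in these 4 fits, beside 0.034%, 0.127%, 0.581% and 0.367% of all genes. In them, Treml4 at an unadjusted p of 0.000709 in the APOE2 line was the only member with a negative value at an unadjusted p under 0.05.

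**Figure D1:**
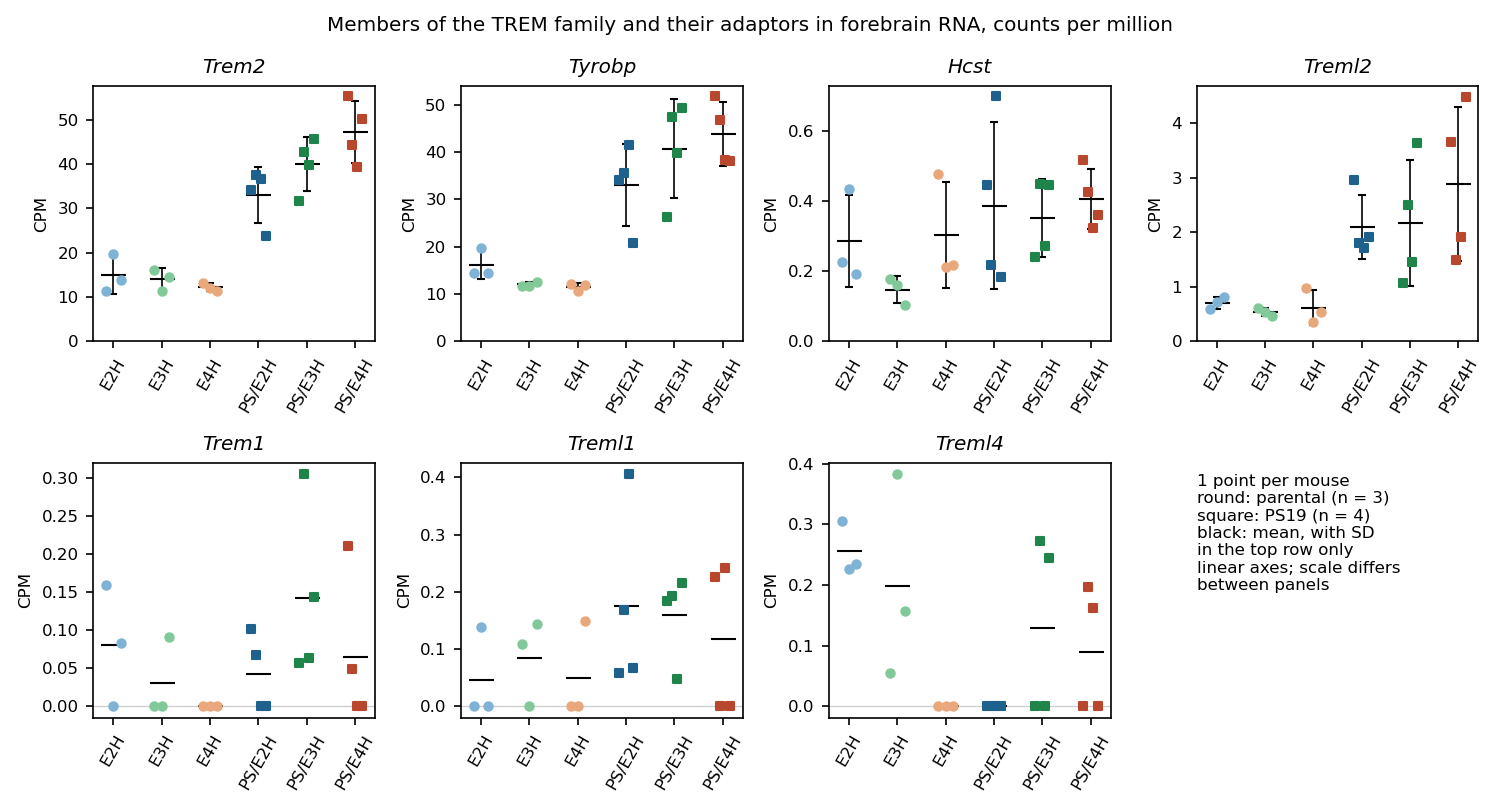
Level of each of the 7 genes in CPM (linear vertical axes, a scale of its own per panel) in the 6 groups, 1 point per mouse, with parental mice as circles (n = 3) and PS19 mice as squares (n = 4). Black bars are group means, with SD in the top row only. For Trem2, Tyrobp and Treml2 the squares lie above all circles of the same APOE line, and Treml4 is at 0 in every E4H and every PS/E2H mouse.

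**Figure D2:**
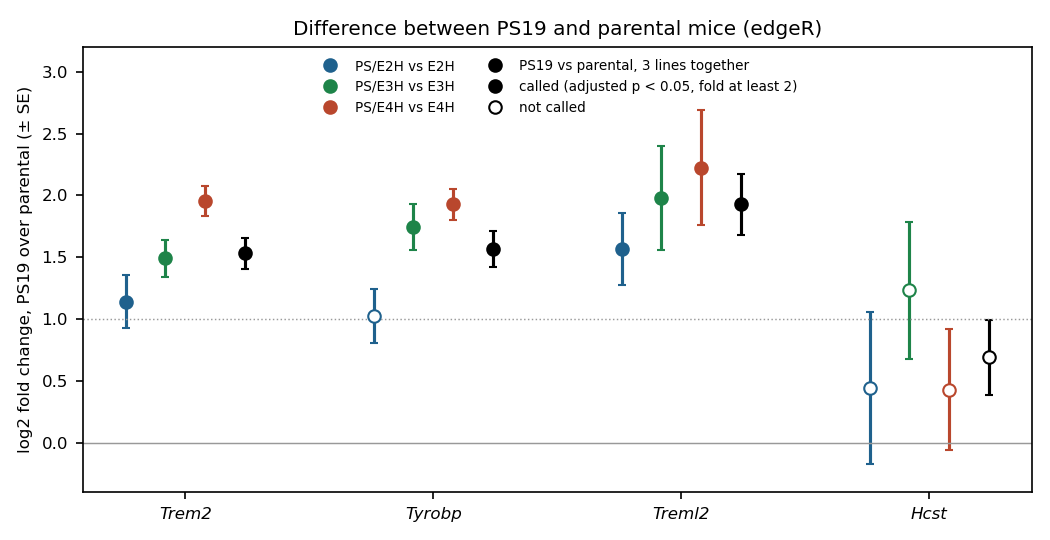
Log2 fold change of PS19 over parental mice (vertical axis, error bars SE) for the 4 members with counts in every mouse, in each APOE line and over the 3 lines together. Filled points were called by edgeR and open points were not. Hcst is open in all 4 fits and Tyrobp in the APOE2 line, and the dotted line marks a fold of 2.

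Trem1, Treml1 and Treml4 were near the limit of detection, and their values are given as counts. Trem1, which amplifies inflammatory responses of neutrophils and monocytes, had 12, 0 and 6 counts in E2H mice, 0, 0 and 7 in E3H mice and 0 in all 3 E4H mice. It had 7, 4, 0 and 0 counts in PS/E2H mice, 4, 19, 4 and 10 in PS/E3H mice and 13, 3, 0 and 0 in PS/E4H mice. Enough mice passed the filter on low counts only in the fit over the 3 lines, where its log2 fold change was 1.36 (SE 1.05, edgeR adjusted p = 0.411).

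The 8 neutrophil markers summed to 0.339 to 9.004 CPM in parental mice and 0.155 to 43.0 CPM in PS19 mice. The highest of all 21 mice was PS/E3H mouse 4 at 43.0 CPM, which had 10 counts of Trem1, followed by PS/E4H mouse 1 at 24.8 CPM with 13 counts. PS/E3H mouse 2, which had the most Trem1 at 19 counts, was at 2.97 CPM. The part of neutrophil RNA in the Trem1 counts was not tested.

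Treml1, a platelet and megakaryocyte receptor with an inhibitory ITIM in its tail, had 8 counts in 1 of 3 E2H mice, 8 and 11 in 2 of 3 E3H mice and 11 in 1 of 3 E4H mice. It had 4 to 25 counts in each PS/E2H mouse, 3 to 15 in each PS/E3H mouse, and 14 and 15 counts in 2 of 4 PS/E4H mice. Its log2 fold change over the 3 lines was 1.32 (SE 0.879, edgeR adjusted p = 0.327). The 6 platelet markers summed to 2.30 to 3.82 CPM in parental mice and 2.10 to 7.16 CPM in PS19 mice, and their part in the Treml1 counts was not tested.

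Treml4, a receptor of macrophages and dendritic cells, differed in a pattern of its own. It had 23, 13 and 17 counts in E2H mice and 4, 24 and 12 in E3H mice, but 0 in all 3 E4H mice. With the transgene it had 0 counts in all 4 PS/E2H mice, 0, 17, 0 and 17 in PS/E3H mice and 0, 12, 10 and 0 in PS/E4H mice. Against a floor of 3 counts per library, the mean level was at least 6.11-fold higher in E2H than in E4H, at least 4.74-fold higher in E3H than in E4H, and at least 5.31-fold higher in E2H than in PS/E2H. None of these passed the edgeR test where it could be fitted, with adjusted p = 0.186 for E4H against E2H and 0.0674 for PS/E2H against E2H, and E4H against E3H did not pass the filter on low counts.

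Levels of different members were compared per kilobase of the principal coding transcript. On that scale, in CPM per kb, Tyrobp was highest in every group, from 20.4 ± 1.31 in E4H to 77.6 ± 12.04 in PS/E4H. Trem2 followed, from 11.2 ± 0.852 in E4H to 43.4 ± 6.43 in PS/E4H. Hcst was at 0.332 ± 0.0858 in E3H to 0.920 ± 0.193 in PS/E4H and Treml2 at 0.258 ± 0.0341 in E3H to 1.38 ± 0.676 in PS/E4H, and those ranges overlapped. The other 3 receptors had group means of at most 0.146 CPM per kb.

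The deposited FPKM values (fragments per kilobase of exon, scaled to library size) set Trem2 much further below Tyrobp, at 8.81 ± 1.43 against 60.5 ± 9.34 FPKM in PS/E4H mice. The lengths behind the 2 scales differ. Dividing counts by FPKM showed that FPKM was scaled to the union of all exons of a gene (98.5% of 13397 genes with a mean of at least 200 counts lay within 2% of a common factor). The union is 4946 bases for Trem2, which has an annotated retained-intron transcript of 4784 bases beside a coding transcript of 1088 bases, but 667 bases for Tyrobp, whose coding transcript has 564. How many Trem2 counts fell in the retained intron was not measured, so its level per coding kilobase may include them.

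No member was called between APOE lines. In the parental mice edgeR called 0 members in E2H against E3H, E4H against E3H and E4H against E2H, where 0.144%, 0.1% and 0.187% of all genes tested were called in either direction. In the PS19 mice it called 0 in PS/E2H against PS/E3H, PS/E4H against PS/E3H and PS/E4H against PS/E2H, beside 0.108%, 0.0197% and 0.109%. DESeq2 and limma on FPKM also called 0 members in these 6 comparisons. At an unadjusted p under 0.05 there were 1, 0, 2, 0, 0 and 2 members in that order. All genes under that limit numbered 2933 of 20797, 1397 of 20958 and 2570 of 20804 in the parental comparisons. In the PS19 comparisons they numbered 2383 of 20324, 1324 of 20332 and 2491 of 20202. These comparisons share groups with each other.

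The members at an unadjusted p under 0.05 were Tyrobp, Trem2 and Treml4. Tyrobp was higher in all 3 E2H mice than in any E3H or E4H mouse, with log2 fold changes of 0.43 over E3H (SE 0.145, edgeR adjusted p = 0.266) and -0.50 for E4H against E2H (SE 0.152, adjusted p = 0.363). On leaving out 1 mouse these ranged from 0.26 to 0.52 and from -0.58 to -0.33. Trem2 was lower in all 4 PS/E2H mice than in any PS/E4H mouse, with a log2 fold change of 0.51 for PS/E4H against PS/E2H (SE 0.146, edgeR adjusted p = 0.298), and Tyrobp stood at 0.40 there (SE 0.182, adjusted p = 0.404) with overlapping groups. On leaving out 1 mouse Trem2 ranged from 0.38 to 0.58 there and Tyrobp from 0.23 to 0.52. The order of the group means of Trem2 in PS19 mice was PS/E4H (47.2 ± 6.99 CPM), PS/E3H (39.9 ± 6.06) and PS/E2H (33.0 ± 6.33), and neighbours in that order overlapped. These groups also differed in sex and may have differed in age at death, and the part of either in the order was not tested.

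Whether the tau difference itself depended on the APOE line was tested as an interaction. Sex was not balanced over the groups, and neither sex nor age at death was in the model. For Trem2 the tau difference was larger by 0.81 on the log2 scale in the APOE4 line than in the APOE2 line (SE 0.261, unadjusted p = 0.00705, edgeR adjusted p = 0.357), and for Tyrobp by 0.91 (SE 0.269, unadjusted p = 0.00416, adjusted p = 0.352). For Trem2 the APOE4 line exceeded the APOE3 line by 0.46 (SE 0.198, adjusted p = 0.99993), and for Tyrobp the APOE2 line fell below the APOE3 line by -0.72 (SE 0.314, adjusted p = 0.847). These values moved with single mice, and in both directions. Omitting E2H mouse 1 gave 0.98 for Trem2 in APOE4 minus APOE2. Omitting E3H mouse 2 gave 0.58 for Trem2 in APOE4 minus APOE3. Omitting PS/E3H mouse 1 gave -0.89 for Tyrobp in APOE2 minus APOE3. Without PS/E2H mouse 4, the APOE4 minus APOE2 difference was 0.68 for Trem2 and 0.74 for Tyrobp, and the APOE2 minus APOE3 difference of Tyrobp was -0.55. Without E2H mouse 2 they were 0.55, 0.73 and -0.56. edgeR called 0 members and 0% of all genes in these 3 interactions, and 0 members on leaving out any 1 mouse. At an unadjusted p under 0.05 there were 2 members for APOE2 minus APOE3, 2 for APOE4 minus APOE3 and 3 for APOE4 minus APOE2, Treml4 among them each time. All genes under that limit numbered 1265 of 22133, 847 of 22212 and 2223 of 22031 in that order. DESeq2 called 1 member, Treml4 in APOE4 minus APOE2, a contrast in which E4H and PS/E2H are both at 0 counts.

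Markers of microglia were on average also higher in PS19 mice, so the rise of Trem2 and Tyrobp was set against them. In bulk RNA, more cells of a type and more RNA per cell cannot be told apart. The geometric mean of 13 microglial markers was 28.8 ± 4.05 CPM in E2H, 27.9 ± 1.09 in E3H and 26.3 ± 0.935 in E4H, and 36.7 ± 9.62, 42.7 ± 5.41 and 47.9 ± 4.42 CPM in PS/E2H, PS/E3H and PS/E4H. Averaged over the lines it was 1.51-fold higher in PS19 mice (0.59 on the log2 scale), by 0.31 in the APOE2 line, 0.61 in the APOE3 line and 0.86 in the APOE4 line. The APOE2 value rested on single mice: it was 0.53 without PS/E2H mouse 4, 0.42 without E2H mouse 2 and 0.20 without PS/E2H mouse 3. Whether the marker difference depends on the line was not tested. Of the 13 markers, 9 passed the test as higher and 0 as lower without a limit on the fold (median log2 fold change 0.70), where 11.4% and 9.63% of all genes did. With the limit on the fold, 3 of the 13 were called higher over the 3 lines and 0 lower, beside 2.24% and 0.367% of all genes. Aif1 and Fcrls were among the 3 (log2 fold changes 1.02 and 1.33, edgeR adjusted p = 0.000200 and 6.76e-06). P2ry12, the lowest of the 13, did not pass the test (-0.06, adjusted p = 0.768).

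Relative to the geometric mean of these markers, Trem2 and Tyrobp were still higher in PS19 mice. The markers themselves ranged from -0.06 to 1.33 in log2 fold change over the 3 lines. Trem2 stood at 41.6% to 59.2% of the marker level in the 9 parental mice and at 81.4% to 105% in the 12 PS19 mice, without overlap. The ratio was 1.92-fold higher in PS19 mice (0.94 on the log2 scale, and 0.85, 0.90 and 1.08 in the APOE2, APOE3 and APOE4 lines). A two-sided exact permutation test within lines gave p = 4.66e-05, the smallest it can give with these 21 mice. How many other microglial genes rose above the marker mean was not counted. The p therefore does not set Trem2, or Tyrobp below, apart from them. PS/E2H mouse 4, low in Trem2 and in microglial markers, had a ratio of 104%, within the range of the other PS19 mice.

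Tyrobp stood at 40.8% to 59.3% of the marker level in parental mice and at 73.8% to 111% in PS19 mice, again without overlap. Its ratio was 1.93-fold higher (0.95 on the log2 scale, exact permutation p = 4.66e-05, also the smallest possible), by 0.68 in the APOE2 line, 1.11 in the APOE3 line and 1.06 in the APOE4 line. With the adjustment of Benjamini and Hochberg over these 2 tests both p-values stay 4.66e-05. Leaving out PS/E2H mouse 4 gave 0.92 for Trem2 and 0.95 for Tyrobp.

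**Figure D3:**
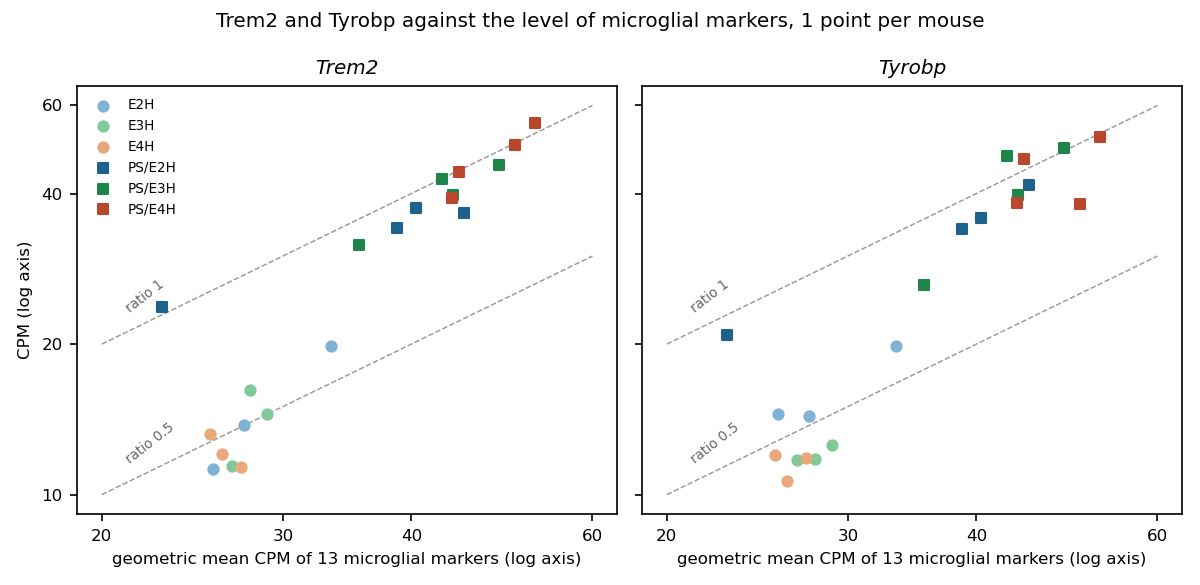
Trem2 (left) and Tyrobp (right) in CPM against the geometric mean CPM of 13 microglial markers, both axes logarithmic, 1 point per mouse. Dashed lines mark ratios of 0.5 and 1. Parental mice (circles) lie around the lower line and PS19 mice (squares) around the upper one, with PS/E2H mouse 4 at the far left of the squares.

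Some RNA of other myeloid cells was higher too. The 8 markers of border macrophages and monocytes summed to 7.69 to 13.8 CPM in parental mice and 15.98 to 34.2 CPM in PS19 mice. These cells also express Tyrobp. Of the 8 markers, 4 (Mrc1, Lyve1, F13a1 and Ccr2) were called higher over the 3 lines, beside 2.24% of all genes. The median log2 fold change of the 8 was 1.09. Of 7 neutrophil markers that could be tested, 2 were called higher, and their median was 2.78. The 9 T and NK cell markers summed to 7.82 to 11.6 CPM in parental and 6.78 to 12.2 CPM in PS19 mice, and the 4 B cell markers to 0.222 to 0.816 and 0.284 to 2.05 CPM. No marker of these lists was at 0 in all mice. The 5 astrocyte markers summed to 902 to 1159 CPM in parental and 1891 to 3710 CPM in PS19 mice. All 5 passed edgeR as higher when no fold was required, Gfap by 2.68 on the log2 scale. By that rule 11.4% of all genes passed as higher and 9.63% as lower. Of the 7 forebrain neuron markers, 5 were lower and 1 higher by the same rule (median -0.26), with sums of 4076 to 4539 CPM in parental and 3434 to 4427 CPM in PS19 mice. The part of these cells in the rise of Trem2, Tyrobp and Treml2 was not tested.

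The rest of the pathway was read from 8 lists in the fit over the 3 lines, where the median log2 fold change of all genes tested was -0.01 and 2.24% of them were called higher and 0.367% lower. Among 18 ligands and partners, 4 were called higher and 0 lower (median 0.07). Without a limit on the fold, 7 passed higher and 4 lower, where 11.4% and 9.63% of all genes did. C1qa and C1qb, subunits of the complement initiator C1q, rose by 1.84 (SE 0.119, edgeR adjusted p = 5.41e-10) and 1.59 (SE 0.108, adjusted p = 1.35e-09), C1qc by 1.59 (SE 0.116, adjusted p = 3.67e-09), and Lgals3, the lectin galectin-3, was the fourth at 1.93. Levels of list genes, here and below, are shown for the APOE4 line, which had the largest share of all genes called higher (2.4%). In CPM, C1qa averaged 37.9 ± 1.22 over the E4H mice and 194 ± 23.0 over the PS/E4H mice. Among the 8 genes for the proteases that shed and cut TREM2 (ADAM10, ADAM17 and the gamma-secretase subunits), 0 were called and the median was 0.12.

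Of 13 other receptors that use TYROBP or HCST, 10 could be tested and 2 were called higher, Itgb2, the integrin beta 2 chain (1.52, SE 0.165, edgeR adjusted p = 6.81e-07), and Cd300lb (3.03, SE 0.596, adjusted p = 0.000756). Klrk1, the NKG2D receptor that HCST is best known for, was not tested because its counts were too low. Of 10 relatives and neighbours of the family, 8 were in the table and tested, and 2 were called higher, Cd300lf (3.32, SE 0.534, adjusted p = 9.68e-05) and again Cd300lb.

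Downstream of TYROBP, 6 of 38 kinases and relay proteins were called higher and 0 lower (median 0.18). The 3 with the smallest p were Vav1, an exchange factor for Rac (1.16, SE 0.118, edgeR adjusted p = 2.97e-07), Fgr, a Src-family kinase (2.80, SE 0.337, adjusted p = 2.76e-06), and Pik3ap1, an adaptor of PI3-kinase (1.14, SE 0.143, adjusted p = 4.79e-06). Syk, the kinase that docks on the ITAM, had a log2 fold change of 0.63 (SE 0.140, adjusted p = 0.00253) and so missed the limit on the fold. Without a limit on the fold, 18 of the 38 passed higher and 1 lower, where 11.4% of all genes passed higher and 9.63% lower.

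Of 16 inhibitors of ITAM signals, 4 were called higher and 0 lower (median 0.51). They were Fcgr2b, the inhibitory Fc receptor (1.95, SE 0.165, edgeR adjusted p = 2.70e-08), Ptpn6, the phosphatase SHP-1 (1.39, SE 0.139, adjusted p = 2.50e-07), Lilrb4a, an inhibitory receptor (3.14, SE 0.346, adjusted p = 8.54e-07), and Pirb at 1.47. In CPM, Ptpn6 averaged 4.31 ± 0.134 over the E4H mice and 13.9 ± 1.83 over the PS/E4H mice.

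Of 11 transcription factors of microglia, 10 were tested and 3 were called higher, Spi1, which encodes PU.1 (1.08, SE 0.109, edgeR adjusted p = 2.64e-07), Irf8 (1.21, SE 0.138, adjusted p = 1.27e-06) and Runx1 (1.25, SE 0.158, adjusted p = 4.94e-06), with 0 lower. Of 12 genes of the microglial state known to need Trem2, 8 were called higher and 0 lower (median 1.48), and all 12 passed without a limit on the fold. The 3 with the smallest p were Itgax, the integrin CD11c (4.33, SE 0.237, adjusted p = 5.44e-11), Clec7a, the lectin Dectin-1 (4.52, SE 0.273, adjusted p = 2.48e-10), and Cst7, the inhibitor cystatin F (4.93, SE 0.315, adjusted p = 5.22e-10). Clec7a averaged 0.717 ± 0.319 CPM over the E4H mice and 25.4 ± 6.19 CPM over the PS/E4H mice. The study reported a smaller fold of Clec7a in the APOE3 and APOE2 lines. Line by line, 4, 8 and 8 of these 12 genes were called higher in the APOE2, APOE3 and APOE4 lines, beside 1, 4 and 5 of the 16 inhibitors and 1, 3 and 10 of the 38 relay proteins. The share of all genes called higher also rose over these lines (0.451%, 1.2% and 2.4%). Whether these counts differ between lines was not tested. The list was chosen with earlier results of these data known.

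**Figure D4:**
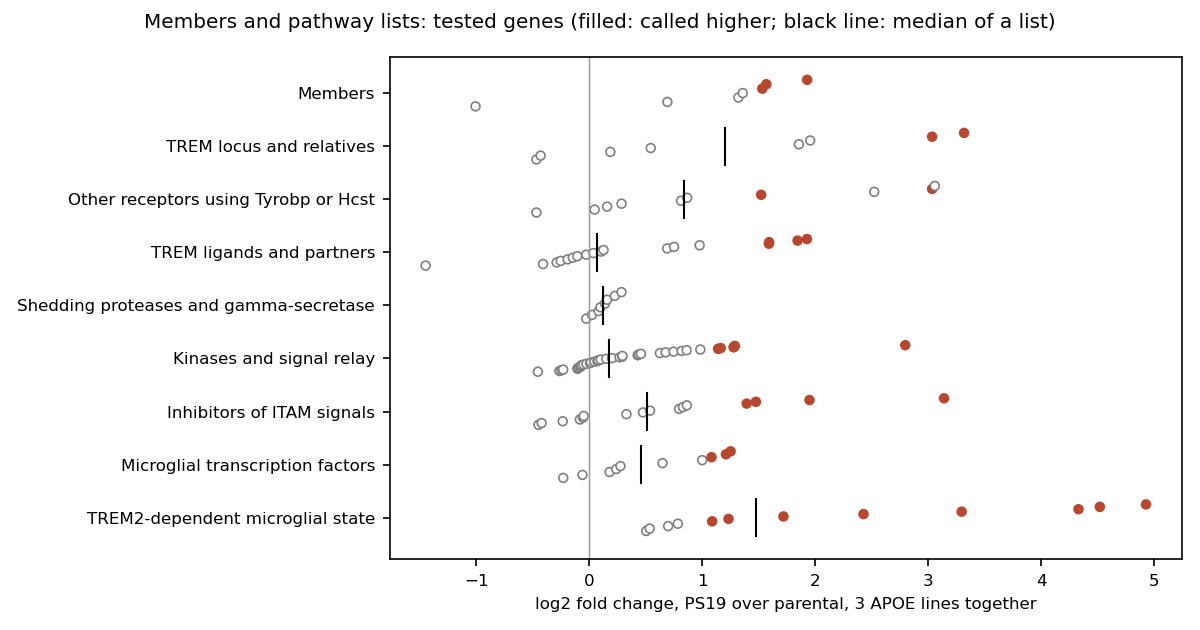
Log2 fold change of PS19 over parental mice over the 3 APOE lines (horizontal axis) for every tested gene of the members and of the 8 pathway lists (rows), with called genes filled and the median of a list as a black line. Genes of the Trem2-dependent state lie between 0.50 and 4.93, whereas those of the shedding proteases lie between -0.03 and 0.29.

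Mice of the same group also varied together in these genes. After subtracting each group's mean of log2 CPM, Pearson's r over the 21 mice was 0.79 between Trem2 and Tyrobp, 0.72 between Hcst and Tyrobp, 0.62 between Hcst and Trem2, and 0.35 to 0.46 between Treml2 and the other 3. Without PS/E2H mouse 4 the first 3 were 0.70, 0.63 and 0.51, and without E2H mouse 2 they were 0.77, 0.68 and 0.53. These are descriptions, and the part of each sample's microglial content in them was not tested. Over 22863 genes, those most like Tyrobp were Cd68, a lysosomal protein of macrophages (0.93), Ctsz (0.92), Ptpn6 (0.91), Ccdc190 (0.905) and Plau (0.89). Those most like Trem2 were Slc9a3r1 and Il10rb (0.88 each), Psmb9 (0.88), Cryzl2 (0.86) and Hpgds (0.85). For Treml2 they were H2-K1 (0.80), Lgals9 (0.79), H2-Q6 (0.78), Ptp4a2 (0.78) and Tctn2 (0.77). For Hcst, whose counts were low, they were Prelp, Dennd1c, Ccdc69, the pseudogene Rps13-ps1 and Prrx2 (0.83 each). These lists hold the highest of 22863 values over 21 mice. How high such values run among unrelated genes was not examined, and the lists were not repeated without single mice.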

How the data were processed

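Forebrain RNA of 21 mice was sequenced as stranded poly(A) libraries on an Illumina NovaSeq instrument. Per the study's methods, the authors trimmed reads with Cutadapt, aligned them with HISAT2 to the mouse genome of Ensembl release 101 (GRCm38) and assembled and quantified transcripts with StringTie. Tool versions and the way counts were derived are not given in the sources used here. The authors deposited a table of counts per gene and a table of FPKM values. In the count table the value 4 was listed 23659 times against 12137 for 3 and 7160 for 5, so 1 count is not necessarily 1 fragment. No value column was without a sample.

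Groups came from the labels. Counts were tested with edgeR 4.0.16 (R 4.3.3): TMM factors, filterByExpr with a minimum count of 10 and total of 15, quasi-likelihood F tests over all genes and Benjamini-Hochberg adjustment. A call needed an adjusted p under 0.05 and a fold of at least 2, except that interactions needed the adjusted p only. Ratios to markers were tested by exact permutation within APOE lines over 42875 arrangements (NumPy 2.4.6, two-sided). Of the 7 members, 4 to 6 passed the filter in a fit of 1 pair of groups or of an interaction and 7 in the fit over the 3 lines. Alternatives were DESeq2 1.42.0, RLE factors, no filter, 1 fit of all mice, no fold limit, limma 3.58.1 on log2 of the deposited FPKM plus 1 or 0.1, the replicate number as a block, and leaving out each mouse. Leaving out mice for the microglial marker level and for the correlations was added after seeing the data. The fits were tested on simulated data.

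The genes named were the 7 members, up to 3 called genes per direction of each pathway list by smallest p, and the 5 genes most like each of 4 members. Other genes and list members were named after their values were seen. Members, lists and tests were chosen with earlier results of these data known. Sequences were read from GENCODE M21 coding transcripts and RefSeq promoters, where 5 of 7 members had an entry. Counting intervals were not used, since replicate mice give the spread, and total counts of about 59265500 to 75932200 per mouse leave genes under about 10 counts imprecise. No batch is given in the labels.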

Additional observations from a re-analysis of the deposited data

Results flagged for a closer look

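Treml2 was at 2.97 CPM in PS/E2H mouse 1, against 1.72 to 1.92 CPM in the other 3 PS/E2H mice, a gap to its neighbour that is large for a group of 4. It was the only such value among 32 sets of mice examined (levels of the 7 genes, ratios of Trem2, Tyrobp and Treml2 to microglial markers, and the marker level itself, in the PS19 groups, except Treml4 where all mice were at 0), and chance alone gives about 1 in 20.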

How the results depend on the processing

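In PS/E2H against E2H, where 2 members were called, 0 were called with no filter on low counts and with limma on log2(FPKM + 1) or log2(FPKM + 0.1), and 0 to 2 on leaving out 1 mouse. DESeq2 called 3 there, and it called 1 member (Treml4) in the APOE4 minus APOE2 interaction, where edgeR called 0. In PS/E2H against E2H, 93 of 20617 genes were called higher with all mice, and 28 of 21259 to 96 of 20438 on leaving out 1. The share of all genes called is not given for the other settings, here or below. The log2 fold change of Trem2 in E2H against E3H turned from 0.09 to -0.014 and -0.023 with limma on FPKM plus 1 and 0.1, and ranged from -0.17 to 0.26 on leaving out 1 mouse. That of Tyrobp in PS/E4H against PS/E3H ranged from -0.053 to 0.21. Neither was called in any of these fits, and the cause was not tested.

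The Treml2 calls depended most on the setting. With limma on log2(FPKM + 1) its log2 fold changes were 0.30, 0.34, 0.45 and 0.36 in the APOE2, APOE3 and APOE4 lines and over the 3 lines, a scale that understates low genes. Trem2 and Tyrobp stayed called in the APOE3 and APOE4 lines and over the 3 lines in every alternative run, and their ratios to microglial markers stayed past the threshold in all, between 0.91 and 1.02 on the log2 scale.

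Replicate numbers did not pair the mice (correlations of deviations -0.09 to 0.05). With the replicate number as a block, 2, 2, 3 and 3 members were called in the APOE2, APOE3 and APOE4 lines and over the 3 lines. Tyrobp was then called in the APOE2 line (1.20, edgeR adjusted p = 0.0112), and Treml2 was not called in the APOE2 line (adjusted p = 0.0896) or the APOE3 line (adjusted p = 0.0680).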
